A study of Mus musculus with 78 samples.

Results

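Livers of mice that had lacked Npc1 throughout life were set against livers in which Npc1 had been knocked down in adulthood, gene by gene. The samples were chosen by their labels and were 18 of the 78 arrays of the series, 1 array per female mouse. The lifelong model comprised 4 Npc1-/- mice and 4 Npc1+/+ littermates, all 11 weeks old, from heterozygote crosses of the BALB/cNctr-Npc1m1N/J line. Npc1-/- mice of this age are labelled post-symptomatic, and this homozygous mutation affects every organ. The knockdown model comprised 5 mice given an Npc1 antisense oligonucleotide (Npc1 oligo) and 5 given a control antisense oligonucleotide (control oligo). These 10 mice were 12-week-old Npc1+/+ BALB/cJ females bought from a supplier, injected from age 8 weeks until age 12 weeks and given no N-acetyl-cysteine (NAC). All 18 mice ate normal chow. The genotype effect was the mean log2 value in Npc1-/- minus that in Npc1+/+ mice. The oligo effect was the mean in Npc1 oligo minus that in control oligo mice. The difference between the models was the genotype effect minus the oligo effect.

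Npc1 encodes a membrane protein of late endosomes and lysosomes that passes cholesterol from the lumen on to the rest of the cell. Without it, unesterified cholesterol and sphingolipids accumulate in these organelles, in the liver most visibly in macrophages that turn into lipid-laden foam cells. An antisense oligonucleotide pairs with an mRNA and leads to its degradation, and oligonucleotides of this kind reach the liver readily after injection.

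Median log2 values of the 18 arrays lay between 5.42 and 5.60. Across genes, the mean Pearson r of an array with the rest of its group was 0.990 to 0.995. Hepatocyte identity genes were abundant on every array. Their mean log2 value was 10.62 to 10.66 in Npc1-/- mice and 10.84 to 11.06 in Npc1+/+ mice, and 10.68 to 10.74 under the Npc1 oligo and 10.73 to 10.80 under the control oligo. Pancreas genes stood higher in Npc1+/+ mouse 4, at a mean of 5.89, than in the other Npc1+/+ mice. The models also differed in colony, age and injection, and what follows from those differences cannot be told apart from the way Npc1 was lost. An offset shared by all arrays of 1 model cancels in the difference between the models, but a gene silent in 1 set of mice has no room to fall there. The starting levels were not the same. Of 12748 genes tested, 2469 (19.4%) passed at an adjusted p under 0.05 by limma between Npc1+/+ and control oligo mice, 136 genes differed by at least 2-fold, and 974 (7.64%) passed as lower in Npc1+/+ mice. Of 26 macrophage and myeloid genes 24 were lower in Npc1+/+ than in control oligo mice, and of 6 MHC class II genes 5 were. With 4 or 5 mice per group, the median half-width of the 95% interval of the difference was 0.28 on the log2 scale, and the p-values refer to the spread between these mice.

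Many genes moved in both models, and where a gene moved in both it mostly moved the same way. By limma, with Benjamini-Hochberg adjusted p-values under 0.05 taken as passing, 5288 of 12748 genes (41.5%) passed for genotype, 2498 higher (19.6%) and 2790 lower (21.9%) in Npc1-/- liver. For the oligo 2277 genes (17.9%) passed, 1551 higher (12.2%) and 726 lower (5.7%). The difference between the models passed for 3528 genes (27.7%), 1490 of them above 0 (11.7%) and 2038 below 0 (16%). Other scalings of the arrays moved these splits. The share of higher genes among those that passed was 68.1% for the oligo as deposited, 56.8% after quantile normalization and 79.2% with arrays centred on their median. For the difference between the models it was 42.2%, 49.4% and 26.7% under the same scalings. The median difference between the models over all genes was -0.12 with centred arrays and -0.02 as deposited.

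Genes that passed in both models with the same sign are called shared here, and there were 1283 of them (10.1% of genes tested), 813 higher (6.38%) and 470 lower (3.69%) in both. They made up 24.3% of the genes that passed for genotype and 56.3% of those that passed for the oligo. Another 142 genes (1.11%) passed in both with opposite signs, 21 higher in Npc1-/- liver and lower under the Npc1 oligo (0.165%), and 121 the other way round (0.949%). Among the 1425 genes that passed in both, 90.0% had the same sign. The effect of genotype was larger in 2906 genes (22.8%), which were not opposite and passed for genotype and for the difference in the same direction. In 2300 of these (18%) the oligo effect did not pass, and 606 (4.75%) were also shared. The oligo effect was larger in 311 genes (2.44%), by the matching rule, 239 of them higher (1.87%) and 72 lower (0.565%). For 303 of them (2.38%) the genotype effect did not pass, and 8 (0.0628%) were also shared. The values of the groups did not overlap in 4348 genes (34.1%) between genotypes and in 1911 genes (15%) between oligos. Without control oligo mouse 2 the opposite genes numbered 80 and those larger under the oligo 174. These 2 classes therefore rested partly on that mouse.

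Across the 12748 genes, the genotype and oligo effects correlated at a Pearson r of 0.568 and a Spearman rho of 0.391, with no mouse in common. The effects spread more widely for genotype (SD 0.567) than for the oligo (SD 0.259). Among the 1283 shared genes, the absolute effect was larger for genotype in 1075, with a median of 0.74 for genotype and 0.40 for the oligo. For 669 shared genes the difference between the models did not pass, which leaves a difference within the intervals above possible. A change of at least 2-fold was reached by 783 of the genes that passed for genotype and by 115 of those that passed for the oligo.

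**Figure D1:**
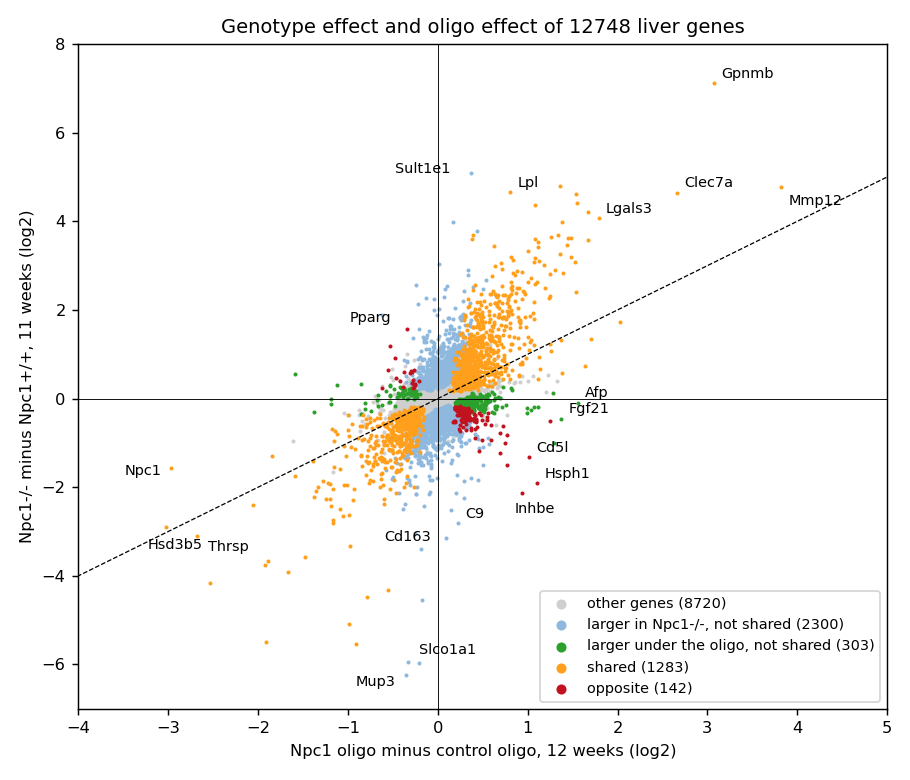
Genotype effect (y axis, Npc1-/- minus Npc1+/+, log2) against oligo effect (x axis, Npc1 oligo minus control oligo, log2) for 12748 genes, 1 point per gene, coloured by class; the dashed line marks equal effects. Gpnmb and Mmp12 lie at the upper right, Mup3 and Slco1a1 at the lower centre with a large genotype effect alone, and the 142 opposite genes in the other 2 quadrants.

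Npc1 itself was lower in both models and more so under the oligo. In Npc1-/- mice it measured 9.02, 8.65, 8.76 and 8.41, against 10.54, 10.39, 9.99 and 10.15 in Npc1+/+ mice. Under the Npc1 oligo it measured 7.16, 6.96, 7.25, 7.55 and 7.34, against 10.36, 9.98, 10.25, 10.22 and 10.27 under the control oligo. No mouse of a lowered group reached the range of its controls, and every Npc1 oligo mouse lay below every Npc1-/- mouse. For genotype the effect was -1.56 ± 0.17 (SE; adjusted p = 1.93e-12), a 2.95-fold lower level, and the oligo effect -2.97 ± 0.15 (adjusted p = 1.19e-25), a 7.81-fold lower level. Their difference was 1.41 ± 0.22 (adjusted p = 8.14e-07). Where the probe set lies relative to the mutation is not given in the sources used here, and the level in Npc1-/- liver may include mutant transcript.

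Genes of lipid-laden macrophages rose in both models. Of the 18 list genes tested, 16 rose and 1 fell in Npc1-/- liver, and 16 rose under the Npc1 oligo. Their median effect was 3.62 for genotype and 1.19 for the oligo, beside medians of -0.02 and 0.01 over all genes. Between the models the difference passed above 0 for 15 and below 0 for 1, Plin2, a lipid droplet coat protein of hepatocytes as well as foam cells.

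Gpnmb, a glycoprotein of lipid-loaded macrophages, measured 12.31, 12.14, 12.43 and 12.48 in Npc1-/- mice, against 5.51, 5.07, 5.02 and 5.28 in Npc1+/+ mice. In Npc1 oligo mice it measured 9.59, 7.61, 7.59, 9.13 and 9.78, against 5.72, 5.57, 5.72, 5.83 and 5.50 under the control oligo. Npc1-/- mice were uniformly high, whereas Npc1 oligo mice 2 and 3 lay well below the other 3 of their group and still above every control. Gpnmb was 139-fold higher in Npc1-/- liver and 8.41-fold higher under the Npc1 oligo, and the difference between the models was 4.05 ± 0.47 (adjusted p = 1.32e-10).

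Mmp12, the macrophage elastase, rose strongly in both models. It measured 10.30, 10.59, 10.19 and 9.46 in Npc1-/- mice, against 5.55, 5.39, 5.15 and 5.34 in Npc1+/+ mice. Mice given the Npc1 oligo measured 11.03, 9.47, 9.45, 10.91 and 11.18, against 6.89, 6.10, 7.10, 6.47 and 6.37 under the control oligo. Npc1 oligo mice 2 and 3 were again the lowest of their group, and the other 3 exceeded every Npc1-/- mouse. The genotype effect of 4.78 ± 0.33 and the oligo effect of 3.82 ± 0.30 differed by 0.96 ± 0.45, which did not pass (adjusted p = 0.106; 95% interval 0.06 to 1.85). Control oligo mice already stood 1.11 ± 0.30 above untreated 12-week mice (adjusted p = 0.00484), a rise that the oligo effect leaves out.

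Other shared macrophage genes kept the order of Gpnmb. Clec7a, the beta-glucan receptor dectin-1, rose by 4.64 ± 0.26 with genotype and 2.66 ± 0.23 with the oligo. Lgals3, encoding galectin-3, rose by 4.07 ± 0.23 and 1.79 ± 0.20, and Itgax, encoding the integrin CD11c, by 4.20 ± 0.25 and 1.67 ± 0.23. Lpl, lipoprotein lipase, rose by 4.66 ± 0.20 and 0.80 ± 0.18, but its mean was 5.9 in Npc1+/+ and 8.5 in control oligo mice, so the starting levels were unlike. Of 26 general macrophage and myeloid genes, all 26 rose with genotype and 18 with the oligo, with medians of 1.70 and 0.66. The difference between the models passed above 0 for 21, among them Cd68, Lyz2 and Ctss. In control oligo against untreated mice 16 of the 26 rose too, beside 4.26% of all genes. In bulk liver, fewer or more cells of a type cannot be told apart from less or more RNA per cell.

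**Figure D2:**
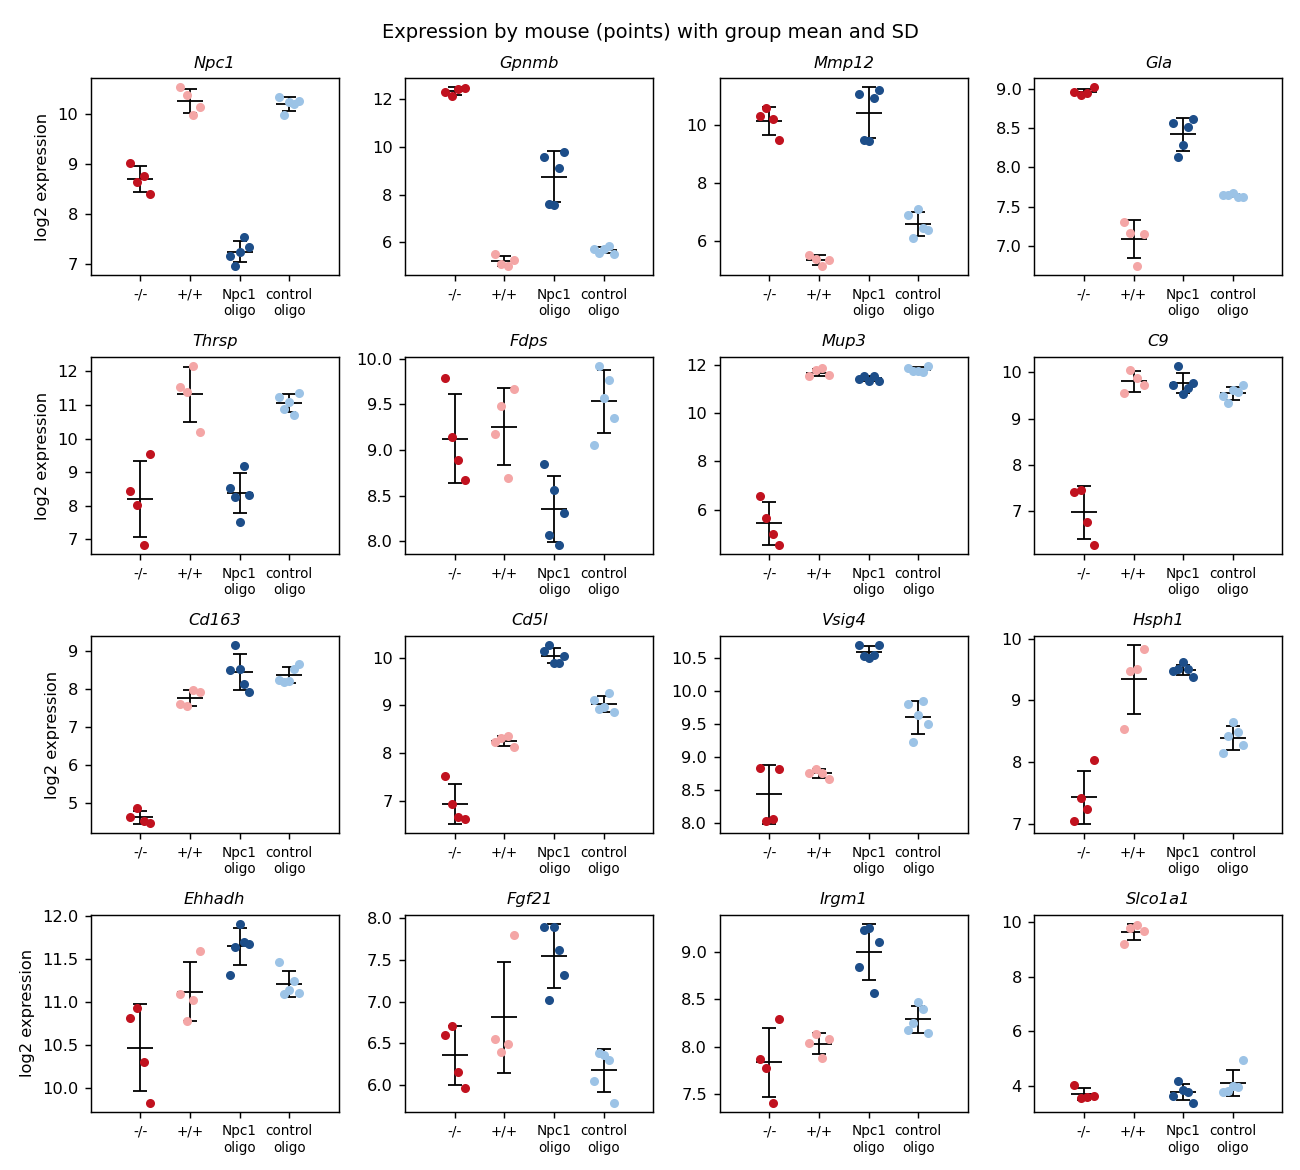
Log2 values of 16 genes in each mouse, with the mean and SD of each group, in Npc1-/- (n = 4), Npc1+/+ (n = 4), Npc1 oligo (n = 5) and control oligo mice (n = 5). Gpnmb, Mmp12 and Gla rise in both models, Mup3 and C9 fall with genotype, and Cd5l and Hsph1 move in opposite directions.

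Lysosomal genes rose in both models. Of 33 lysosomal hydrolases and activators tested, 25 rose and 2 fell in Npc1-/- liver, and 22 rose under the Npc1 oligo. Shared changes numbered 20, and the median effect was 0.65 for genotype and 0.41 for the oligo. Of 28 lysosomal membrane and vacuolar ATPase genes, 20 rose and 3 fell with genotype, and 15 rose and 1, Npc1, fell with the oligo. Starting levels were unlike here too. Of the 33 hydrolases and activators 14 were lower and 1 higher in Npc1+/+ than in control oligo mice. Of the 28 membrane and vacuolar ATPase genes 9 were lower, beside 7.64% of all genes. Macrophage genes rose in the same livers, and their part in the lysosomal rise was not tested.

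Gla, encoding alpha-galactosidase A, measured 8.96, 8.91, 8.95 and 9.02 in Npc1-/- mice, against 7.30, 7.16, 6.74 and 7.15 in Npc1+/+ mice. The 5 Npc1 oligo mice measured 8.57, 8.13, 8.28, 8.51 and 8.61, against 7.64, 7.65, 7.67, 7.63 and 7.63 under the control oligo. Neither pair overlapped, and the control oligo mice were the tightest group. Npc1+/+ mice started lower, at a mean of 7.09 against 7.64 in control oligo mice. The genotype effect was 1.87 ± 0.14, the oligo effect 0.78 ± 0.13 and their difference 1.10 ± 0.19 (adjusted p = 4.06e-06). Gusb (beta-glucuronidase), Lgmn (legumain), Hexa (a beta-hexosaminidase subunit) and Galc (galactosylceramidase) kept the same order, with genotype effects of 1.95 to 2.25 and oligo effects of 0.77 to 0.93. Exceptions ran the other way. Ctsc, cathepsin C, fell by 1.51 ± 0.13 with genotype while its oligo effect of -0.19 ± 0.12 did not pass, and Gaa, acid alpha-glucosidase, passed with opposite signs at -0.22 ± 0.08 and 0.34 ± 0.07.

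The promoter of Gla is shown because it holds 2 copies of TCACGTGA, the palindromic core of the CLEAR element bound by TFEB, a transcription factor of lysosomal genes. The 250 bases before the RefSeq start of Gla lie at chrX:134601006-134601255 on the minus strand of GRCm38.p6, and capitals mark the 2 matches, which begin 228 and 195 bases before the start.
Gla: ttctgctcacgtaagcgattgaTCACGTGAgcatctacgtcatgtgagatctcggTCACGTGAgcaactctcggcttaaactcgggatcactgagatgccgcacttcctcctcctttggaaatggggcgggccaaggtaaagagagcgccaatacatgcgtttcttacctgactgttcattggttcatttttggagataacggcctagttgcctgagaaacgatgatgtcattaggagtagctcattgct
Searched on both strands over the 250 bases before 27025 mouse gene starts, TCACGTGA occurred in 0.803%. It occurred in 2 of the 30 lysosomal hydrolase promoters matched, those of Gla and Ctsd. The shorter E-box CACGTG, which every TCACGTGA contains, occurred in 6.05% of promoters and in 8 of these 30. In this and the searches below, 9 motifs in all, a match is a description of the letters.

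Several hepatocyte genes fell in both models. Thrsp, a regulator of lipogenesis, measured 8.43, 8.02, 6.83 and 9.54 in Npc1-/- mice, against 11.54, 11.37, 12.15 and 10.18 in Npc1+/+ mice. With the Npc1 oligo the values were 8.54, 8.28, 7.53, 9.19 and 8.32, against 11.24, 10.88, 11.07, 10.71 and 11.35 under the control oligo. The 4-mouse groups were wide but neither pair overlapped. The effect of genotype was -3.11 ± 0.46 and the oligo effect -2.68 ± 0.41, and the interval of their difference, -1.67 to 0.82, holds effects unequal by up to that much in either direction.

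Hsd3b5, a steroid-metabolising enzyme under growth hormone control, measured 3.95, 3.94, 3.10 and 3.97 in Npc1-/- mice, against 5.78, 7.55, 5.93 and 7.33 in Npc1+/+ mice. Npc1 oligo mice measured 5.86, 4.84, 5.93, 5.45 and 5.18, against 8.06, 8.45, 8.56, 8.60 and 8.72 under the control oligo. The genotype effect was -2.91 ± 0.39 and the oligo effect -3.02 ± 0.34, although Npc1+/+ mice started lower than control oligo mice. In Npc1-/- mice the level lay below 5.54, the median of all values on the arrays, so that it may have been at background.

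Shared drops were also found in transport and hormone metabolism. Slc22a7, an organic anion transporter, fell by 4.16 ± 0.17 with genotype and 2.53 ± 0.15 with the oligo. Car3, a carbonic anhydrase, fell by 3.75 ± 0.33 and 1.93 ± 0.30, and Dio1, which activates thyroid hormone, by 3.68 ± 0.37 and 1.89 ± 0.33. Hamp2, a hepcidin family gene, fell by 1.76 ± 0.27 and 1.59 ± 0.25, and the difference of -0.16 ± 0.37 did not pass (adjusted p = 0.784). Cyp7b1, an oxysterol hydroxylase, fell by 2.64 ± 0.19 and 1.05 ± 0.17.

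Part of the sterol synthesis genes fell in each model. Among 22 cholesterol synthesis and uptake genes, 1 rose and 10 fell in Npc1-/- liver, and 13 fell under the Npc1 oligo. The medians were -0.43 for genotype and -0.46 for the oligo, and 7 genes were shared. Between the models the difference passed above 0 for 2 and below 0 for 4.

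Fdps, encoding farnesyl diphosphate synthase, measured 9.79, 9.14, 8.90 and 8.67 in Npc1-/- mice, against 9.18, 9.48, 8.69 and 9.67 in Npc1+/+ mice. Npc1 oligo treatment gave values of 8.85, 8.07, 8.56, 7.96 and 8.31, against 9.05, 9.92, 9.57, 9.77 and 9.35 under the control oligo. The genotype groups overlapped and the oligo groups did not. The genotype effect of -0.13 ± 0.24 did not pass (adjusted p = 0.715), the oligo effect was -1.18 ± 0.22 (adjusted p = 3.63e-05), and the difference of 1.05 ± 0.33 passed (adjusted p = 0.011). Without Npc1-/- mouse 1 that difference no longer passed (adjusted p = 0.0556).

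Sc5d, the lathosterol oxidase of a late step, had the larger drop with genotype. It measured 10.35, 9.40, 9.70 and 8.85 in Npc1-/- mice, against 11.03, 11.23, 10.58 and 11.39 in Npc1+/+ mice. Under the Npc1 oligo it measured 10.63, 10.29, 10.46, 10.10 and 10.34, against 11.03, 11.23, 11.17, 11.06 and 10.97 under the control oligo. Neither pair overlapped, and Npc1-/- mice spread most. The effects were -1.48 ± 0.18 and -0.72 ± 0.16, and their difference of -0.76 ± 0.24 (adjusted p = 0.0139) did not pass without Npc1-/- mouse 4 (adjusted p = 0.0959). Tm7sf2 and Ebp, also of late sterol synthesis, fell by 1.34 ± 0.15 and 1.07 ± 0.10 with genotype. Ebp also fell with the oligo, by 0.42 ± 0.09, while the oligo effect on Tm7sf2 of -0.34 ± 0.13 did not pass (adjusted p = 0.0702).

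The genotype effect on this group differed by age. Median genotype effects over the 22 genes were 0.66 at 1 week, 0.90 at 3, 0.90 at 5, 0.38 at 7, 0.19 at 9 and -0.43 at 11 weeks. The median oligo effect, -0.46, thus had the sign of the median genotype effect at 11 weeks and the opposite of that at the earlier 5 ages. At 9 weeks, however, 2 of the 22 genes passed as higher with genotype and 5 as lower. The shares over all genes at that age were 18.4% and 17.2%. Fdps had genotype effects of 1.42 ± 0.24 at 1 week (adjusted p = 2.51e-05) and 1.14 ± 0.24 at 3 weeks (adjusted p = 0.000353).

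The promoter of Hmgcs1, encoding the HMG-CoA synthase at the entry to sterol synthesis, is shown for its sterol regulatory element TCACCCCAC, the type of site that SREBP factors bind. It was chosen for the motif after its values were seen: the genotype effect was -0.63 ± 0.24 (adjusted p = 0.028) and the oligo effect -0.85 ± 0.21 (adjusted p = 0.00269). The 250 bases lie at chr13:119690101-119690350 on the plus strand of GRCm38.p6 (RefSeq), and capitals mark the match, which begins 137 bases before the start.
Hmgcs1: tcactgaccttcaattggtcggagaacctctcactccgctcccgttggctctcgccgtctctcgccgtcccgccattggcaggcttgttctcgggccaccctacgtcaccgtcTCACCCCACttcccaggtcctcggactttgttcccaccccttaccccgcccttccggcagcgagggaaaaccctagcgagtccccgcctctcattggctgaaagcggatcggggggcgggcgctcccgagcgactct
On either strand TCACCCCAC occurred in 0.466% of the 27025 promoters and in 1 of the 18 matched promoters of the group. The CCAAT box CCAATC, which partners this element in sterol genes, occurred in 15.1% of promoters and in 11 of these 18.

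**Figure D3:**
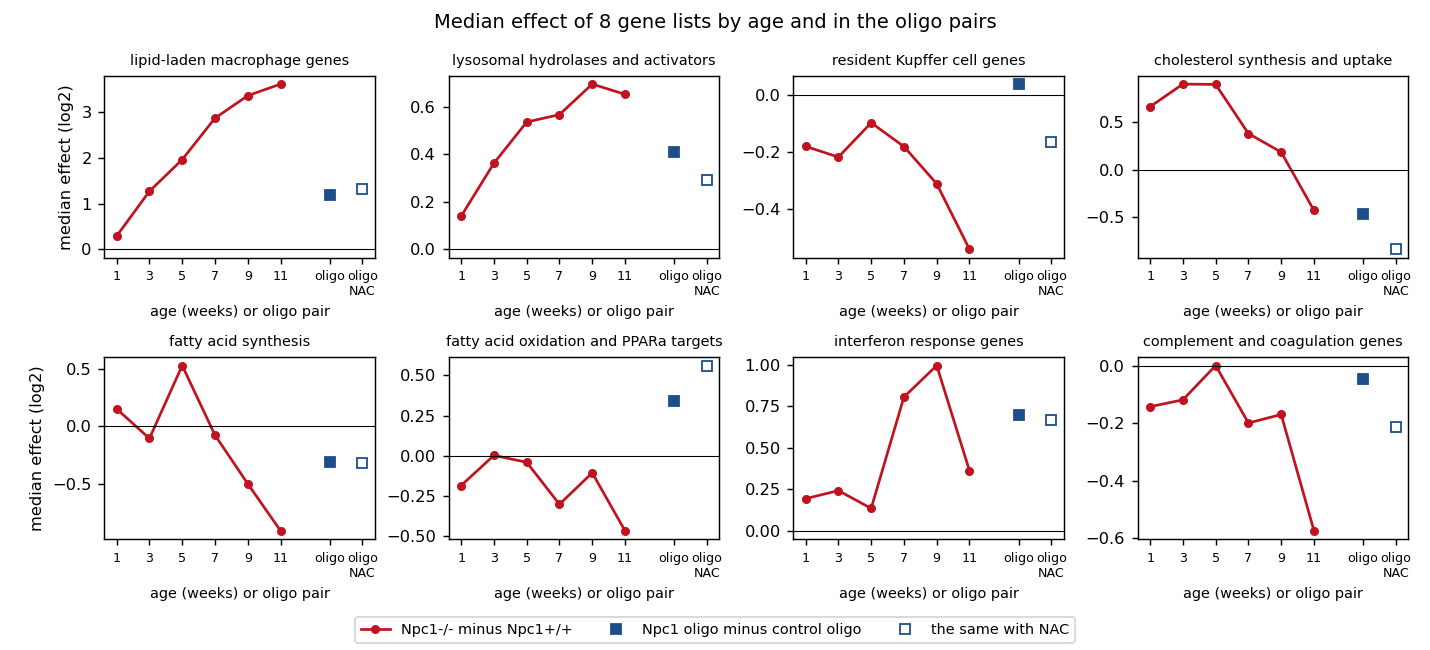
Median log2 effect of 8 gene lists in Npc1-/- minus Npc1+/+ mice from 1 to 11 weeks, then for Npc1 oligo minus control oligo at 12 weeks without and with NAC. Lipid-laden macrophage genes climb with age, sterol synthesis declines from 0.90 at 3 weeks to -0.43 at 11 weeks, and fatty acid oxidation is below 0 at 11 weeks and above 0 in both oligo pairs.

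Fatty acid synthesis fell further in the lifelong model. Of 16 genes, 13 fell in Npc1-/- liver and 7 under the Npc1 oligo, and the medians were -0.91 and -0.31. The difference between the models passed below 0 for 9 and above 0 for 1. Elovl5, a fatty acid elongase, fell by 1.75 ± 0.14 with genotype and had an oligo effect of -0.10 ± 0.12 that did not pass. Me1, the malic enzyme that supplies NADPH, fell by 1.65 ± 0.16 and 0.47 ± 0.14. Scd1, the stearoyl-CoA desaturase, was the exception: its genotype effect of -0.29 ± 0.29 did not pass and its oligo effect was -1.38 ± 0.26 (adjusted p = 4.61e-05). The difference for Scd1, 1.09 ± 0.39 (adjusted p = 0.0277), did not pass without any of 4 mice, which were Npc1+/+ mouse 3, control oligo mice 2 and 4 and Npc1 oligo mouse 4. Srebf1, which encodes the factor that drives this pathway, fell by 1.30 ± 0.23 and 1.85 ± 0.20, and the difference of 0.55 ± 0.31 did not pass (adjusted p = 0.185). Among 10 LXR target and sterol efflux genes, 3 rose and 5 fell with genotype, and 1 rose and 5 fell with the oligo. Abcg1, a cholesterol exporter of macrophages, rose in both, by 1.89 ± 0.12 and 0.49 ± 0.11.

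**Figure D4:**
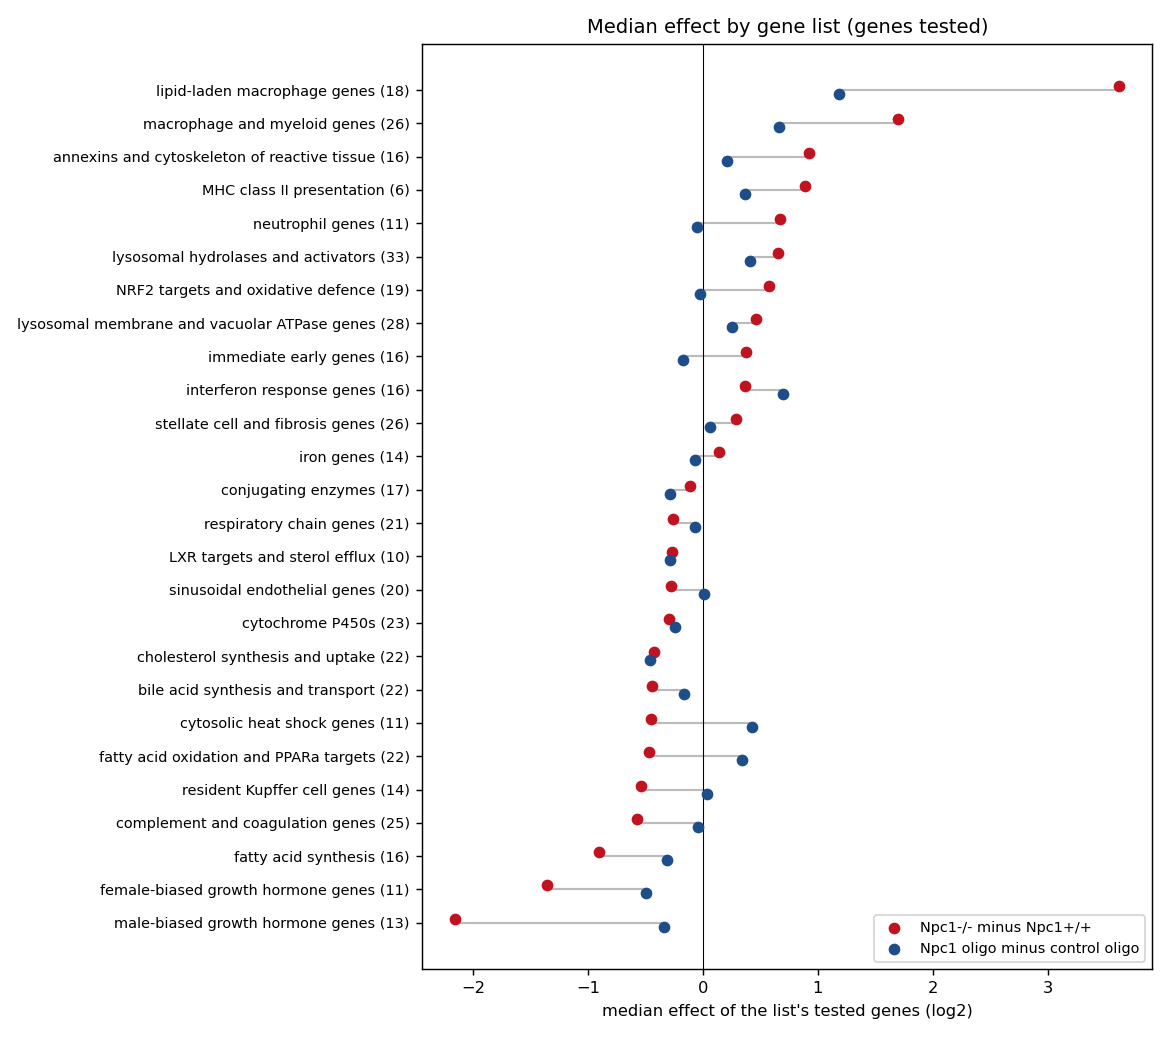
Median genotype effect and median oligo effect (log2) of 26 gene lists, 1 row per list, over the members tested. Lipid-laden macrophage genes have the highest medians in both models, male-biased growth hormone genes the lowest genotype median, and the heat shock and fatty acid oxidation lists medians on either side of 0.

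Steep drops in Npc1-/- liver were found among genes under growth hormone control. Growth hormone secreted in pulses or steadily sets the sex pattern of many liver genes. Of 13 male-biased genes, 11 fell in Npc1-/- liver and 5 under the Npc1 oligo, with medians of -2.15 and -0.34. Of 11 female-biased genes, 7 and 4 fell, with medians of -1.36 and -0.50. Between the models the difference passed below 0 for 9 and 5 of them.

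Mup3 encodes a major urinary protein, one of a family of near-identical copies that the array may not separate. It measured 6.55, 5.65, 4.99 and 4.53 in Npc1-/- mice, against 11.51, 11.77, 11.85 and 11.55 in Npc1+/+ mice. In Npc1 oligo mice it measured 11.42, 11.54, 11.32, 11.55 and 11.34, against 11.87, 11.73, 11.73, 11.68 and 11.93 under the control oligo. Npc1+/+ and control oligo levels were alike, and the Npc1 oligo mice stayed close to them. For genotype the effect was -6.24 ± 0.27 (adjusted p = 1.36e-30), the oligo effect of -0.35 ± 0.24 did not pass (adjusted p = 0.32), and the difference was -5.88 ± 0.36.

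Slco1a1, an organic anion uptake carrier, measured 4.04, 3.55, 3.59 and 3.64 in Npc1-/- mice, against 9.22, 9.77, 9.90 and 9.66 in Npc1+/+ mice. Mice given the Npc1 oligo measured 3.64, 4.18, 3.87, 3.78 and 3.39, against 3.79, 3.80, 4.01, 3.97 and 4.97 under the control oligo. The 12-week mice lay near the bottom of the scale whatever they were given, and untreated ones measured 3.60 to 4.05. The difference of -5.60 ± 0.38 thus compares a gene that was well expressed in Npc1+/+ littermates with one already low in every 12-week group. Sult3a1 and Elovl3 had the same pattern, with means of 8.8 and 7.0 in Npc1+/+ mice and 3.2 and 3.8 in control oligo mice. Restricting the test to genes whose Npc1+/+ and control oligo means lay within 2-fold left 2836 genes larger in Npc1-/- liver. That restriction took out only 136 of 12748 genes, so it could change the count little. Gaps in starting level were found in this class and in the others. The classes were defined from the same Npc1+/+ and control oligo values, so an excess over all genes is partly built in. Of the 1338 genes with the larger rise in Npc1-/- liver, 377 passed between Npc1+/+ and control oligo mice by limma. Of the 1568 with the larger drop 473 did, beside 19.4% of all genes. So did 245 of the 813 genes higher in both models and 91 of the 239 with the larger rise under the oligo. Of the 121 genes lower in Npc1-/- liver and higher under the Npc1 oligo, 53 did.

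Drug- and steroid-metabolising enzymes gave further large drops in Npc1-/- liver, but starting levels were not matched throughout the lists below. Slco1a1 belongs to the bile acid list and Sult3a1 to the conjugating enzymes. In Npc1+/+ against control oligo mice 2 bile acid genes were higher and 3 lower, beside 19.4% of all genes passing. For P450 genes these counts were 1 and 4, and for conjugating enzymes 2 and 2. Ces3a, a carboxylesterase, fell by 5.53 ± 0.31 with genotype and 0.91 ± 0.27 with the oligo, and Sult2a8, a sulfotransferase, by 5.09 ± 0.22 and 0.99 ± 0.19. Cyp2j5, a P450 of fatty acid epoxidation, fell by 2.27 ± 0.11 and 0.60 ± 0.09. Beside the list counts that follow, 21.9% of all genes fell and 19.6% rose with genotype. With the oligo 5.7% fell and 12.2% rose. Of 23 cytochrome P450 genes, 9 fell and 2 rose with genotype, and 8 fell and 1 rose with the oligo. Of 22 bile acid synthesis and transport genes, 15 fell and 4 rose with genotype, against 6 and 1 with the oligo. Cyp8b1, the sterol 12-alpha-hydroxylase, fell by 1.50 ± 0.26 with genotype and had an oligo effect of 0.51 ± 0.24 (adjusted p = 0.13). Abcc4, a bile acid exporter of the sinusoidal membrane, rose by 2.12 ± 0.15 with genotype and had an oligo effect of -0.22 ± 0.13 (adjusted p = 0.261). Fewer conjugating enzymes fell with genotype than with the oligo. Of 17, 6 fell and 3 rose with genotype, and 9 fell and 1 rose with the oligo. Without Npc1 oligo mouse 5 that 9 became 5, and under quantile normalization 7 rose and 6 fell with genotype, with a genotype median of 0.01 against -0.11 as deposited.

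Sult1e1, the estrogen sulfotransferase, had the highest positive difference of all named genes. It measured 6.37, 7.10, 8.20 and 11.27 in Npc1-/- mice, against 3.21, 3.20, 3.15 and 3.03 in Npc1+/+ mice. The 5 Npc1 oligo mice measured 3.64, 4.03, 3.75, 3.66 and 3.69, against 3.44, 3.07, 3.41, 3.08 and 3.93 under the control oligo. Npc1-/- mice spread widely, from mouse 1 to the far higher mouse 4, and all stood above the other 3 groups. The genotype effect was 5.09 ± 0.46 and the oligo effect of 0.37 ± 0.41 did not pass, a difference of 4.72 ± 0.62 (adjusted p = 5.38e-09).

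Complement and coagulation genes, made by hepatocytes and released into blood, mostly fell in the lifelong model. Of 25 genes, 22 fell in Npc1-/- liver and 5 under the Npc1 oligo. The medians were -0.57 and -0.05, and the difference between the models passed below 0 for 22. Quantile normalization gave 20 lower and 1 higher for genotype. In the pair given NAC 14 of the 25 fell and 1 rose with the oligo, with a median of -0.21, beside 12% of all genes lower. At 9 weeks 11 fell and 1 rose with genotype, with a median of -0.17, beside 17.2% of all genes lower.

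C9, the pore-forming complement component, measured 7.43, 7.46, 6.78 and 6.28 in Npc1-/- mice, against 9.54, 10.05, 9.88 and 9.72 in Npc1+/+ mice. With the Npc1 oligo the values were 9.73, 10.13, 9.54, 9.67 and 9.77, against 9.49, 9.33, 9.61, 9.57 and 9.72 under the control oligo. Npc1-/- mice alone stood apart, below the 14 others. The effect of genotype was -2.82 ± 0.21 and the oligo effect of 0.22 ± 0.19 did not pass, with a difference of -3.04 ± 0.28 (adjusted p = 5.13e-14). C8a, another component of the membrane attack complex, fell by 2.52 ± 0.16 with genotype against an oligo effect of 0.15 ± 0.14. Mbl1, a mannose-binding lectin that starts the cascade, fell in both, by 1.81 ± 0.11 and 0.64 ± 0.10. At 9 weeks the genotype effect on C9 was smaller, at -0.78 ± 0.21 (adjusted p = 0.00188).

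Neutrophil genes and genes of reactive tissue rose in Npc1-/- liver. All 11 neutrophil genes tested rose in Npc1-/- liver and 0 passed under the Npc1 oligo by limma, also 0 at an unadjusted p under 0.05. The medians were 0.67 and -0.05. The difference between the models passed above 0 for 8 of the 11 as deposited, 5 after quantile normalization and 6 with centred arrays. The mean level over all 13 list genes was 5.38 to 6.20 in Npc1-/- and 4.76 to 4.91 in Npc1+/+ mice. It was 4.84 to 5.57 under the Npc1 oligo and 5.15 to 5.28 under the control oligo. Every Npc1+/+ and control oligo mouse thus lay below 5.54, the median of all values. Against untreated mice 5 of the 11 were higher in Npc1 oligo mice and 3 in control oligo mice, beside 4.26% of all genes for the latter. In Npc1+/+ mice 4 were lower than in control oligo mice, beside 7.64% of all genes. Of 16 annexin and cytoskeleton genes of reactive tissue, 13 rose with genotype and 5 with the oligo, with medians of 0.92 and 0.21.

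Anxa1, encoding annexin A1, measured 9.79, 10.08, 10.50 and 10.32 in Npc1-/- mice, against 6.61, 6.37, 6.13 and 6.49 in Npc1+/+ mice. Npc1 oligo mice measured 7.81, 7.05, 7.48, 7.47 and 8.36, against 7.49, 7.00, 7.47, 7.02 and 7.05 under the control oligo. The genotype groups were far apart while the oligo groups overlapped. For genotype the effect was 3.77 ± 0.20, the oligo effect of 0.43 ± 0.18 did not pass (adjusted p = 0.0856) and the difference was 3.34 ± 0.27.

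Lcn2, an acute-phase iron-scavenging protein, measured 10.38, 10.88, 10.77 and 11.20 in Npc1-/- mice, against 7.75, 9.03, 8.93 and 7.62 in Npc1+/+ mice. Npc1 oligo treatment gave values of 9.85, 12.01, 8.88, 9.90 and 10.76, against 10.38, 8.82, 9.28, 11.08 and 9.33 under the control oligo. Both oligo groups were high and overlapped widely. The genotype effect of 2.48 ± 0.40 exceeded the oligo effect of 0.50 ± 0.35 by 1.97 ± 0.53 (adjusted p = 0.00308). Control oligo mice stood 1.90 ± 0.35 above untreated mice (adjusted p = 7.49e-05), which the oligo effect does not include.

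Stellate cell and fibrosis genes rose in 14 of 26 cases with genotype and 5 with the oligo, and 2 fell with genotype. Without control oligo mouse 2 the oligo count was 3. Timp2, an inhibitor of matrix proteases, rose by 2.35 ± 0.12 and 0.48 ± 0.11, and Vim, encoding vimentin, by 2.81 ± 0.17 and 1.24 ± 0.15. Of 19 NRF2 target and oxidative defence genes, 11 rose and 5 fell with genotype, against 4 and 3 with the oligo. The shares over all genes were 19.6% and 21.9% with genotype, and 12.2% and 5.7% with the oligo. Nqo1, a quinone reductase, rose by 1.58 ± 0.17 with genotype and had an oligo effect of -0.21 ± 0.15 (adjusted p = 0.355). Hmox1, haem oxygenase 1, rose in both, by 1.69 ± 0.16 and 0.63 ± 0.14.

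Part of the resident macrophage genes parted from the general macrophage genes. Kupffer cells are the macrophages that line the liver sinusoids, and of 14 of their genes 9 fell and 3 rose in Npc1-/- liver, while 1 fell and 4 rose under the Npc1 oligo. The median was -0.54 for genotype and 0.04 for the oligo, and the difference between the models passed below 0 for 8 and above 0 for 4. The 3 that rose with genotype all passed for a larger effect in Npc1-/- liver. The genes given by value below all had a difference below 0, so they do not stand for the whole list. In the pair given NAC 3 of the 14 rose and 3 fell with the oligo, with a median of -0.16. Over all genes 9.51% rose and 12% fell there. Starting levels were unlike, since 8 of the 14 were lower in Npc1+/+ than in control oligo mice, beside 7.64% of all genes. Against untreated mice 5 were higher and 1 lower in control oligo mice, beside 4.26% of all genes higher.

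Cd163, the scavenger receptor for haemoglobin bound to haptoglobin, measured 4.64, 4.87, 4.53 and 4.48 in Npc1-/- mice, against 7.60, 7.57, 7.99 and 7.92 in Npc1+/+ mice. Under the Npc1 oligo it measured 8.51, 9.16, 8.54, 8.15 and 7.92, against 8.24, 8.19, 8.22, 8.52 and 8.66 under the control oligo. In Npc1-/- liver the gene lay below the median of all values, while the oligo groups overlapped. The genotype effect was -3.14 ± 0.19 and the oligo effect of 0.09 ± 0.17 did not pass, giving a difference of -3.23 ± 0.25 (adjusted p = 5.46e-17). Clec4f, a lectin that marks Kupffer cells in mice, followed with a genotype effect of -2.13 ± 0.13 and an oligo effect of 0.20 ± 0.12 that did not pass.

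Cd5l, a protein secreted by macrophages that limits their apoptosis, moved in opposite directions. It measured 7.53, 6.94, 6.67 and 6.62 in Npc1-/- mice, against 8.25, 8.31, 8.36 and 8.13 in Npc1+/+ mice. In Npc1 oligo mice it measured 10.13, 10.26, 9.89, 9.90 and 10.03, against 9.12, 8.92, 8.97, 9.26 and 8.86 under the control oligo. Neither pair overlapped. The effect of genotype was -1.32 ± 0.16, the oligo effect 1.01 ± 0.14 and the difference -2.33 ± 0.21 (adjusted p = 4.54e-14). Both signs recurred in other mice, with a genotype effect of -0.47 ± 0.16 at 9 weeks (adjusted p = 0.0156) and an oligo effect of 0.47 ± 0.14 with NAC (adjusted p = 0.0108).

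Vsig4, a complement receptor of Kupffer cells, measured 8.84, 8.03, 8.06 and 8.81 in Npc1-/- mice, against 8.76, 8.82, 8.76 and 8.66 in Npc1+/+ mice. Mice given the Npc1 oligo measured 10.69, 10.53, 10.50, 10.54 and 10.69, against 9.80, 9.23, 9.64, 9.84 and 9.50 under the control oligo. Npc1-/- mice 2 and 3 lay low, mice 1 and 4 lay near their littermates, and the oligo groups were separate. The genotype effect of -0.32 ± 0.17 did not pass (adjusted p = 0.144), the oligo effect was 0.99 ± 0.16 and the difference -1.31 ± 0.23 (adjusted p = 9.12e-06).

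Clec4n, encoding the fungal receptor dectin-2, measured 4.50, 4.45, 4.55 and 4.93 in Npc1-/- mice, against 5.05, 5.04, 5.17 and 5.21 in Npc1+/+ mice. The 5 Npc1 oligo mice measured 7.19, 7.13, 6.94, 6.75 and 6.85, against 5.70, 5.66, 5.93, 5.80 and 5.56 under the control oligo. All 8 mice of the lifelong model lay under the overall median of 5.54, and the genotype effect of -0.51 ± 0.14 (adjusted p = 0.00272) was measured in the lower part of the scale. The oligo effect was 1.24 ± 0.13, and it was 0.97 ± 0.13 with NAC.

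Sinusoidal endothelial genes fell in the lifelong model. Of 20 genes, 13 fell and 2 rose with genotype, while 3 rose with the oligo, and the medians were -0.28 and 0.01. Dnase1l3, a secreted nuclease, fell by 1.36 ± 0.09 with genotype against an oligo effect of -0.21 ± 0.08 that did not pass (adjusted p = 0.0611). Mrc1, the mannose receptor, passed with opposite signs, at -0.32 ± 0.09 and 0.29 ± 0.08. Clec1b, a lectin that binds podoplanin, rose in both, by 1.21 ± 0.13 and 0.66 ± 0.12.

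Fatty acid oxidation was the group with the most opposite genes. Of 22 oxidation genes and PPAR-alpha targets, 15 fell and 2 rose in Npc1-/- liver, whereas 11 rose and 1 fell under the Npc1 oligo. The medians were -0.47 and 0.34, and the difference between the models passed below 0 for 18. The 5 opposite genes were Acadm, Hadha, Hadhb and Ehhadh of the oxidation pathways and the droplet protein Plin2, and without Npc1-/- mouse 4 there were 3.

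Ehhadh, the bifunctional enzyme of peroxisomal oxidation, measured 10.82, 10.94, 10.31 and 9.83 in Npc1-/- mice, against 11.09, 10.79, 11.03 and 11.59 in Npc1+/+ mice. With the Npc1 oligo the values were 11.32, 11.64, 11.91, 11.70 and 11.67, against 11.47, 11.09, 11.14, 11.24 and 11.10 under the control oligo. Both pairs overlapped. For genotype the effect was -0.65 ± 0.15 (adjusted p = 0.000172), the oligo effect 0.44 ± 0.13 (adjusted p = 0.0121) and the difference -1.09 ± 0.20 (adjusted p = 1.07e-05). With NAC the oligo effect was 1.16 ± 0.13. The mitochondrial enzymes Hadhb and Acadm changed by -0.46 ± 0.09 and -0.25 ± 0.09 with genotype and by 0.30 ± 0.08 and 0.31 ± 0.08 with the oligo. At 9 weeks the median genotype effect of the list was -0.11, with 5 genes lower and 3 higher, beside 17.2% of all genes lower and 18.4% higher at that age.

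A few cytosolic heat shock genes also passed with opposite signs. Of 11 genes, 5 fell and 1 rose with genotype, while 5 rose with the oligo, and the medians were -0.46 and 0.43. Quantile normalization left 3 lower with genotype. At 9 weeks the only gene of the list to pass for genotype rose, with a list median of 0.03, and with NAC 2 rose and 1 fell with the oligo, beside 9.51% of all genes higher and 12% lower with NAC. Between the models the difference passed below 0 for 7, and Hsph1, Hsp90aa1 and Dnajb1 were opposite. Without control oligo mouse 2, 3 genes rose with the oligo and Hsph1 alone was opposite.

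Hsph1, a co-chaperone of the heat shock response, measured 7.03, 7.41, 7.23 and 8.03 in Npc1-/- mice, against 8.54, 9.48, 9.51 and 9.83 in Npc1+/+ mice. Npc1 oligo mice measured 9.48, 9.51, 9.62, 9.50 and 9.38, against 8.14, 8.42, 8.64, 8.49 and 8.27 under the control oligo. Neither pair overlapped, and the Npc1 oligo group was the tightest of the 4. The genotype effect was -1.91 ± 0.33, the oligo effect 1.11 ± 0.30 (adjusted p = 0.00515) and the difference -3.02 ± 0.45 (adjusted p = 1.57e-07). Untreated 12-week mice measured 9.62, 9.15, 9.12, 9.23 and 8.87, near the Npc1 oligo mice. Against these untreated mice, Npc1 oligo mice differed by 0.30 ± 0.30 (adjusted p = 0.497) and control oligo mice by -0.81 ± 0.30 (adjusted p = 0.0437). With NAC the oligo effect of 0.45 ± 0.30 did not pass, and neither did the genotype effect at 9 weeks of -0.35 ± 0.33.

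Inhbe, a hepatocyte-secreted activin subunit, measured 7.58, 7.69, 6.82 and 5.35 in Npc1-/- mice, against 9.14, 9.05, 8.73 and 9.06 in Npc1+/+ mice. Npc1 oligo treatment gave values of 8.28, 8.05, 8.24, 7.19 and 7.64, against 6.95, 6.80, 7.16, 7.99 and 5.84 under the control oligo. The oligo groups overlapped through control oligo mouse 4. The effects were -2.14 ± 0.34 and 0.93 ± 0.30, a difference of -3.07 ± 0.45 (adjusted p = 1.35e-07). Untreated mice measured 8.50 to 9.20, above both oligo groups, and against them the Npc1 oligo effect was -0.89 ± 0.30 (adjusted p = 0.0186). The oligo effect against control oligo mice no longer passed without control oligo mouse 2 or 5 or Npc1 oligo mouse 1 or 3, with adjusted p-values up to 0.137.

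Pparg, encoding the lipid-sensing receptor PPAR-gamma, was opposite in the other direction. It measured 8.95, 8.81, 9.04 and 8.46 in Npc1-/- mice, against 7.55, 7.42, 6.81 and 7.24 in Npc1+/+ mice. Under the Npc1 oligo it measured 7.34, 7.29, 7.44, 7.74 and 7.28, against 8.09, 7.73, 7.61, 7.67 and 7.66 under the control oligo. The genotype groups were far apart and the oligo groups overlapped through Npc1 oligo mouse 4. The effect of genotype was 1.56 ± 0.12 and the oligo effect -0.34 ± 0.11 (adjusted p = 0.0203), a difference of 1.90 ± 0.16. The oligo effect did not pass without control oligo mouse 1 or without Npc1 oligo mouse 1, 2 or 5, with adjusted p-values up to 0.114. It was -0.35 ± 0.11 in the pair given NAC (adjusted p = 0.0149). Cirbp, a cold-inducible RNA-binding protein, and Podn, encoding the matrix protein podocan, were opposite in the same way, with genotype effects of 1.18 ± 0.17 and 0.65 ± 0.12 and oligo effects of -0.53 ± 0.16 and -0.55 ± 0.10.

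More interferon response genes passed under the oligo than with genotype. Of 16 genes, 5 rose and 1 fell in Npc1-/- liver, while 14 rose under the Npc1 oligo, with medians of 0.36 for genotype and 0.70 for the oligo. The difference between the models passed below 0 for 3 and above 0 for 1. Without Npc1-/- mouse 4 the genotype count was 4 and the count below 0 was 5, and without Npc1-/- mouse 3 they were 8 and 2. Interferon genes spread widely among Npc1-/- mice, from a mean level of 6.64 to 7.74, against 6.52 to 6.82 in Npc1+/+ mice. They ran from 7.36 to 7.70 under the Npc1 oligo, against 6.86 to 6.99 under the control oligo. With genotype, 12 of the 16 rose at 7 weeks (15.1% of all genes), 13 at 9 weeks (18.4%) and 5 at 11 weeks.

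Irgm1, an interferon-induced GTPase, measured 7.86, 7.78, 7.41 and 8.29 in Npc1-/- mice, against 8.04, 8.13, 7.88 and 8.08 in Npc1+/+ mice. In Npc1 oligo mice it measured 8.84, 9.23, 9.26, 8.56 and 9.11, against 8.17, 8.25, 8.47, 8.40 and 8.15 under the control oligo. The genotype groups overlapped and the oligo groups did not. An effect of -0.20 ± 0.20 for genotype did not pass (adjusted p = 0.471), the oligo effect was 0.71 ± 0.18 (adjusted p = 0.00265) and the difference -0.91 ± 0.27 (adjusted p = 0.0075).

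Ifit1, which binds viral RNA, measured 6.33, 6.57, 5.37 and 7.39 in Npc1-/- mice, against 6.19, 6.13, 5.77 and 6.19 in Npc1+/+ mice. Mice given the Npc1 oligo measured 7.21, 6.61, 7.18, 6.69 and 7.43, against 5.82, 6.36, 6.33, 6.05 and 6.34 under the control oligo. Npc1-/- mice reached from below to above all their littermates. The genotype effect of 0.35 ± 0.28 did not pass at 11 weeks but was 1.51 ± 0.28 at 9 weeks (adjusted p = 1.48e-05). The oligo effect of 0.85 ± 0.25 (adjusted p = 0.0127) did not pass without Npc1 oligo mouse 5 (adjusted p = 0.0503), and the difference between the models was -0.50 ± 0.38 (adjusted p = 0.357). Usp18, which removes the ubiquitin-like ISG15, was the gene with the larger rise in Npc1-/- liver, at 2.31 ± 0.26 and 1.24 ± 0.23, and its difference of 1.06 ± 0.35 did not pass without Npc1-/- mouse 4 (adjusted p = 0.0889).

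The promoter of Ifit1 is shown because it carries the interferon-stimulated element in a repeated form. The 250 bases lie at chr19:34640639-34640888 on the plus strand of GRCm38.p6 (RefSeq), and capitals mark 2 matches to the element, GAAA, 2 bases of any kind and GAAA, read on the opposite strand, which begin 104 and 85 bases before the start.
Ifit1: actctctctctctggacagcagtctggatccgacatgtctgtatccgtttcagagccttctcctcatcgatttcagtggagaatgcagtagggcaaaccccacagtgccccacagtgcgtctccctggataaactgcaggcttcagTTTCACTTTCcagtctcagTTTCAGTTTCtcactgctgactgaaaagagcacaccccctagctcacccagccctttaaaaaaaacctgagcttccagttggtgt
On either strand the element occurred in 3.04% of the 27025 promoters and in 8 of the 13 interferon response promoters matched, those of Bst2, Gbp3, Ifit1, Ifit3, Irgm1, Oas1a, Rsad2 and Stat2. The heat shock element, GAA, TTC and GAA with 2 bases of any kind between neighbours, in 0.4% of promoters, occurred in 1 of 9 heat shock promoters. The AP-1 site TGAGTCA, in 4.43%, occurred in 1 of 13 lipid-laden macrophage promoters, and the PU.1 site GAGGAAGT, in 2.44%, in 1 of 17 macrophage promoters. The nuclear receptor direct repeat, 2 copies of AGGTCA with 1 base between them, in 0.037%, occurred in 0 of 18 fatty acid oxidation promoters.

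Fgf21, a fasting hormone that PPAR-alpha induces in liver, measured 6.60, 6.71, 6.16 and 5.96 in Npc1-/- mice, against 6.55, 6.40, 6.49 and 7.80 in Npc1+/+ mice. The 5 Npc1 oligo mice measured 7.90, 7.02, 7.90, 7.62 and 7.32, against 6.05, 6.39, 6.36, 6.30 and 5.79 under the control oligo. Npc1+/+ mouse 4 stood above the other mice of the lifelong model, and the oligo groups were separate. An effect of -0.45 ± 0.29 for genotype did not pass (adjusted p = 0.225), the oligo effect was 1.37 ± 0.26 (adjusted p = 6.98e-05) and the difference -1.82 ± 0.40 (adjusted p = 0.000214). Cyp4a10, a fatty acid hydroxylase induced by PPAR-alpha, had effects of -0.20 ± 0.27 and 1.07 ± 0.24.

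Afp, encoding the fetal serum protein alpha-fetoprotein, measured 4.97, 4.91, 5.25 and 5.42 in Npc1-/- mice, against 4.94, 5.27, 5.65 and 5.07 in Npc1+/+ mice. With the Npc1 oligo the values were 6.83, 5.89, 7.63, 6.70 and 7.68, against 5.22, 5.54, 5.17, 5.59 and 5.40 under the control oligo. Every Npc1 oligo mouse stood above the 13 others, which stayed near or below the median of all values. For genotype the effect was -0.09 ± 0.29 and for the oligo 1.56 ± 0.26, a difference of -1.65 ± 0.39 (adjusted p = 0.000701). Mmp13, a collagenase, and Igfbp2, a binding protein of insulin-like growth factors, had genotype effects of -0.18 ± 0.17 and -0.20 ± 0.18 and rose with the oligo by 1.12 ± 0.15 and 0.99 ± 0.16. Sult2a3, a sulfotransferase, fell by 1.59 ± 0.36 with the oligo, but its mean was 4.2 in Npc1+/+ and 8.5 in control oligo mice.

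The remaining groups differed less clearly. Of 16 immediate early genes, 7 rose and 1 fell with genotype, and 1 rose and 1 fell with the oligo. Both oligo groups stood high for them, since 13 of the 16 were higher in control oligo than in untreated mice. Atf3, a stress-induced repressor, rose by 2.91 ± 0.42 with genotype and had an oligo effect of 0.34 ± 0.38. Respiratory chain genes fell in 16 of 21 cases with genotype and 3 with the oligo, but quantile normalization left 5 lower and 1 higher with genotype, and with centred arrays 1 rose with the oligo in place of the 3 that fell. Of 6 MHC class II presentation genes, 5 rose with genotype and 2 with the oligo. Among 14 iron genes, 4 rose and 2 fell with genotype, and 2 rose and 4 fell with the oligo. Over all genes 19.6% rose and 21.9% fell with genotype, and 12.2% rose and 5.7% fell with the oligo. Apart from the 4 that fell with the oligo, the iron counts lay near these shares. Hamp, encoding the iron hormone hepcidin, had a genotype effect of -0.02 ± 0.34 and fell by 1.19 ± 0.30 with the oligo, and their difference (adjusted p = 0.0436) did not pass when any of 11 single mice was left out.

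Other mice of the series repeated most of these signs. Of the 813 genes higher in both models, 794 (97.7%) had a genotype effect of the same sign at 9 weeks, and 728 (89.5%) an oligo effect of the same sign in the separate pair given NAC. Over all genes the sign was kept in 77.4% and 63.5%. Of the 470 genes lower in both, 449 (95.5%) and 435 (92.6%) kept their sign. The 1568 genes with the larger drop in Npc1-/- liver kept a negative genotype effect at 9 weeks in 1478 cases, and 1019 of them passed there. At that age 35.7% of all genes passed in either direction, and with NAC 21.5% passed for the oligo. For the 121 genes lower in Npc1-/- liver and higher under the Npc1 oligo, the oligo effect kept its sign in 104 with NAC and passed with it in 50. Measured against untreated mice, which changes the reference for the same Npc1 oligo mice, 77 of the 121 (63.6%) kept the sign, near the 66.8% of all genes. Of the 239 genes with the larger rise under the oligo, 190 kept the sign with NAC. Of these 86 passed, while 5 of the 239 passed with the other sign.

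The likeness of both models was also described at each age of the lifelong one. The Pearson correlation of the oligo effect with the genotype effect across the 12748 genes was 0.257 at 1 week, 0.386 at 3, 0.479 at 5, 0.574 at 7, 0.564 at 9 and 0.568 at 11 weeks. The genes that passed for genotype numbered 983, 2299, 1856, 3540, 4547 and 5288 at these ages. The 6 correlations share the 10 oligo mice, so they are given side by side with no test between them.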

How the data were processed

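Liver RNA had been extracted with TRIzol and RNeasy columns and hybridised to Affymetrix mouse arrays, per the labels' protocols. The deposited table held log2 expression values for 35556 probe sets in 78 samples, and the submitters' processing notes list RMA and Partek 6.5 with no role for either. How arrays were scaled to one another is not given in the sources used here. The 12-week livers had been frozen on dry ice or kept in RNAlater, per the labels, without saying which sample was which.

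Of the probe sets, 21789 had 1 gene symbol in the platform annotation, 1621 had several and 12146 are not named here. For each of 19938 genes the probe set of highest mean was kept. A gene was tested when its log2 value, as deposited, exceeded 5.54, the overall median, in 4 or more arrays, which left 12748 genes. The values carry no detection calls, so a change to or from a group mean below 5.54 may be understated.

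The effects come from limma 3.58.1 run under R 4.3.3 (lmFit with 1 mean per labelled group over all 78 arrays, contrasts, eBayes), two-sided, with Benjamini-Hochberg adjustment over all genes tested and 0.05 as the threshold. Errors after ± are standard errors unless marked as SD. Lists are described by counts and medians, with no test of a list. The members of the comparison and the gene lists were chosen with earlier results of these data known. The procedure was tested on simulated data.

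Genes are named by rule: Npc1, the 10 highest and 10 lowest differences between the models, the 10 shared genes of each direction with the largest smaller effect, the 10 opposite genes of each kind and the 10 genes larger under the oligo with the largest differences, up to 6 members of each list described, and exceptions that the text counts. Clone names were left out. Values by mouse are given for a subset chosen after the values were seen.

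Alternatives were a 2-fold threshold, no filter and a stricter filter, quantile normalization, centred arrays, averaged probe sets, a robust prior with an intensity trend, array weights, a fit of the 18 arrays alone, a replicate block, 9 weeks in place of 11, the pair given NAC, untreated mice in place of control oligo mice, and each mouse left out. The restriction to genes with Npc1+/+ and control oligo means within 2-fold and the lists with each mouse left out were chosen after seeing the data. Promoter sequences are those of RefSeq on GRCm38.p6.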

Additional observations from a re-analysis of the deposited data

Results flagged for a closer look

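Single mice stood far from the rest of their group, by Dixon's criterion for 4 or 5 values, in 12 of 212 groups examined (5.66%), and about 1 group in 20 is expected to do so by chance. For single genes, Hsd3b5 was 3.10 in Npc1-/- mouse 3, while the rest of that group had 3.94 to 3.97, Slco1a1 was 4.97 in control oligo mouse 5, and Pparg was 8.09 in control oligo mouse 1. Fgf21 was 7.80 in Npc1+/+ mouse 4, and Ifit1 was 5.77 in Npc1+/+ mouse 3. Among the mean levels of gene lists, the bile acid list was 9.61 in Npc1 oligo mouse 5, the heat shock list 9.16 in Npc1-/- mouse 4 and the endothelial list 7.78 in control oligo mouse 2. In Npc1+/+ mice the lysosomal membrane list was 8.43 and the fibrosis list 6.96 in mouse 3, the complement list 10.78 in mouse 2 and the pancreas list 5.89 in mouse 4.

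The genotype effect and the oligo effect differed, by the test of the difference itself, in 3528 of 12748 genes. They hold the 2906 genes larger in Npc1-/- liver, the 311 larger under the oligo and the 142 opposite genes, and some genes of no class. For 669 of the shared genes the difference did not pass.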

How the results depend on the processing

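With 4 or 5 mice per group and values near the bottom of the log2 scale for some genes, small differences and changes of dim genes were measured least well. The counts of genes in each class kept within 1.5 times of their values as deposited in several settings. These were both filters, quantile normalization, averaged probe sets, the intensity trend with a robust prior and the fit of 18 arrays alone. The restriction to genes with Npc1+/+ and control oligo means within 2-fold did so too, but it took out only 136 genes. The correlation was judged by its jackknife standard error of 0.0705, from leaving out each mouse. It stayed within that error in the same settings, but was not computed with the intensity trend. A change of at least 2-fold left 783 genes for genotype, 115 for the oligo, 505 for the difference, 84 shared, 2 opposite, 439 larger in Npc1-/- liver and 14 larger under the oligo, since that threshold is stricter. Opposite genes numbered 232 with centred arrays, 230 with array weights, 288 in the pair given NAC and 90 at 9 weeks. Genes larger under the oligo numbered 471 with centred arrays, 499 with NAC and 537 against untreated mice. Against untreated mice 3732 genes passed for the oligo and 1988 were shared. At 9 weeks 1903 genes were larger in Npc1-/- liver. With NAC the correlation of the effects was 0.4479, beyond that error from the 0.5675 as deposited. The cause of these shifts was not tested.

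Leaving out each mouse in turn gave 4647 to 5288 genes for genotype, 1673 to 2336 for the oligo, 3135 to 3593 for the difference, 1029 to 1270 shared, 80 to 158 opposite, 2537 to 2906 larger in Npc1-/- liver, 174 to 360 larger under the oligo and correlations of 0.5308 to 0.5903. The lowest counts for the oligo, for opposite genes and for genes larger under the oligo came without control oligo mouse 2. Replicate numbers did not pair the mice: deviations of same-numbered mice correlated between -0.171 and 0.156. With the replicate block, 5280 genes passed for genotype, 2249 for the oligo and 3530 for the difference, with 1270 shared, 141 opposite, 2897 larger in Npc1-/- liver and 308 larger under the oligo, and a correlation of 0.5675.

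Among gene lists, quantile normalization left 3 NRF2 and 1 lysosomal membrane genes lower with genotype, against 5 and 3 as deposited, and 2 endothelial genes lower with the oligo, which did not pass as deposited. With centred arrays 3 LXR target genes rose with the oligo, against 1.

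Among named genes, 26 effects changed sign. With 9 weeks in place of 11, the genotype effect was 0.061 for Chordc1, 0.18 for Stat2, 0.029 for Dnaja1 and -0.041 for Mt1, and the difference was -0.29 for Defb1, 1.35 for Car3, 0.14 for Gbp3, 0.23 for Sc5d, -0.10 for Mylip, 0.0021 for Fabp1, 0.46 for Cyp2b13, -0.0038 for Cyp39a1 and 0.011 for Ugt2b5. Against untreated mice the oligo effect was 0.15 for Hspa2, 0.14 for Rdh9, -0.89 for Inhbe, 0.39 for Ccn1 and -0.091 for Stat2, and the difference was -0.050 for Ccn1, 0.16 for Acot3, -1.19 for Jun and -0.26 for Clec1b. With NAC the oligo effect was -0.30 for Dnajb1, -0.15 for Klf6, 0.14 for Ndufb8 and -0.27 for Tfrc. The cause was not tested.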

Other observations

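Several liver functions outside the comparison's named groups were also measured. The counts below stand beside shares over all genes of 19.6% higher and 21.9% lower with genotype. With the oligo the shares were 12.2% higher and 5.7% lower. Of 18 apolipoprotein and lipoprotein assembly genes, 3 rose and 10 fell in Npc1-/- liver and 4 rose under the Npc1 oligo, and the difference between the models passed above 0 for 2 and below 0 for 7. Quantile normalization changed the genotype counts to 5 higher and 6 lower and the oligo count to 7 higher. Of 21 ER stress and amino acid response genes, 2 rose and 8 fell with genotype, against 2 and 1 with the oligo, and quantile normalization gave 3 and 4 with genotype. Of 11 p53 target and growth arrest genes, 6 rose with genotype and 4 with the oligo, with medians of 0.66 and 0.27. Of 15 monocyte and inflammatory chemokine genes, 6 rose and 3 fell with genotype and 7 rose and 2 fell with the oligo, with medians of 0.40 and 0.46. Of 14 glycolysis and glucose use genes, 8 rose and 3 fell with genotype and 5 rose with the oligo.

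Other groups moved little in either model. Of 21 cell cycle and DNA replication genes, 1 rose and 3 fell with genotype and 1 rose with the oligo, and 5 fell with genotype under quantile normalization or with centred arrays. Of 16 circadian clock genes, 1 rose and 1 fell with genotype and 1 fell with the oligo. Among 10 lymphocyte genes, 1 rose and 1 fell with genotype, and the mean level over all 19 list genes was 4.66 to 4.87 in Npc1-/- and 4.75 to 4.88 in Npc1+/+ mice, near the lower part of the scale.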
